A study of Oryza sativa with 6 samples.

Results

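Plants answer attack at the cell wall with small secreted proteins, and rice carries many genes for them. The set described here was taken by name from the annotation of a rice array: chitinases, thaumatin-like proteins, xylanase inhibitors, Bowman-Birk inhibitors, cystatins, other proteinase inhibitors and genes named pathogenesis-related proteins. The array annotation listed 37390 genes, and 113 of them made up the set. The product text of 146 probe sets matched these names, 136 of those were assigned to 1 gene, and 5 of the 118 genes they named were left out by locus.

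The RNA came from root tips of a Japonica rice, cut from 0 to 1 cm, and was measured on 6 Affymetrix arrays. Before aluminium (Al), the 5-d-old seedlings had floated on 0.5 mM CaCl2, at a pH that the labels do not give, and 3 arrays were made. After Al, 3 arrays were made from seedlings held for 6 h in 0.5 mM CaCl2 with 50 µM Al at pH 4.5. Tips held for the same 6 h in a solution lacking Al were not analysed here, so the change of solution, the elapsed time and Al itself cannot be told apart. The labels call the samples of a group biological repeats, and nothing says that they were separate cultures. The p-values therefore speak to the spread among these 6 samples, which may be technical.

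Chitinases cut chitin, a polymer of fungal walls that rice itself does not make, and thaumatin-like proteins are the antifungal PR-5 class of pathogenesis-related proteins. Xylanase inhibitors block the enzymes with which microbes open the xylan of grass cell walls. Bowman-Birk inhibitors act on serine proteases such as trypsin, and cystatins act on cysteine proteases of the papain type. Many genes of these families are known to be induced by wounding, pathogens or defence hormones, and Al is known to bind to the wall and to stop growth at the root tip.

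Values are log2 signals of single probe sets, so a value is set against the other arrays of the same probe set and not against other genes. Where a gene was called present on no array before Al, its fold is written "at least": its signals there are taken as upper limits, which covers detection and not the spread between arrays, so the 95% interval of the fitted change stands beside it. Testing required a presence call on 3 or more of the 6 arrays, whatever their group. A gene was called higher or lower where the limma adjusted p was under 0.05, and all changes are log2 differences, after minus before Al, with the standard error (SE) of that fit. Of the 113 genes, 63 were tested. Another 45 were called present on no array and 5 on only 1 or 2 arrays, and were not tested. Of the 63, 49 were present on all 6 arrays.

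After Al, 38 of the 63 tested genes passed the test, where 33.4% of all 18898 tested genes did. Of the 63, 27 were higher (42.9%) and 11 lower (17.5%), beside 15.9% higher and 17.6% lower among all tested genes, and 25 did not pass. The set was chosen with earlier results of these data known, so the shares are a description. No test was made over the set as a whole. A rise of at least 2-fold was called for 17 of the 63, where 5.04% of all tested genes rose that far, and a fall of at least 2-fold for 4, where 2.61% of all tested genes fell that far. The median change was 0.22 in the set and -0.04 over all tested genes. In 43 of the 63 genes the arrays before and after Al did not overlap, among them every gene that passed. Separation of the arrays therefore adds little to a call, and its share among all tested genes was not counted. In bulk tips a lower signal can come from fewer cells of a type or from less RNA per cell, and these cannot be told apart.

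Some risers passed the presence filter only through the arrays after Al, so the counts were repeated on genes present on all 6 arrays. There 19 of 49 were higher, beside 15.7% of all such genes, and 9 rose at least 2-fold, beside 3.77%. Among the same genes 11 of 49 were lower, beside 18.9%, and 4 fell at least 2-fold, beside 2.26%. The other 8 risers, all of at least 2-fold, had been present on 1 or 2 of the 3 arrays before Al (5 genes) or on none of them (3 genes).

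**Figure D1:**
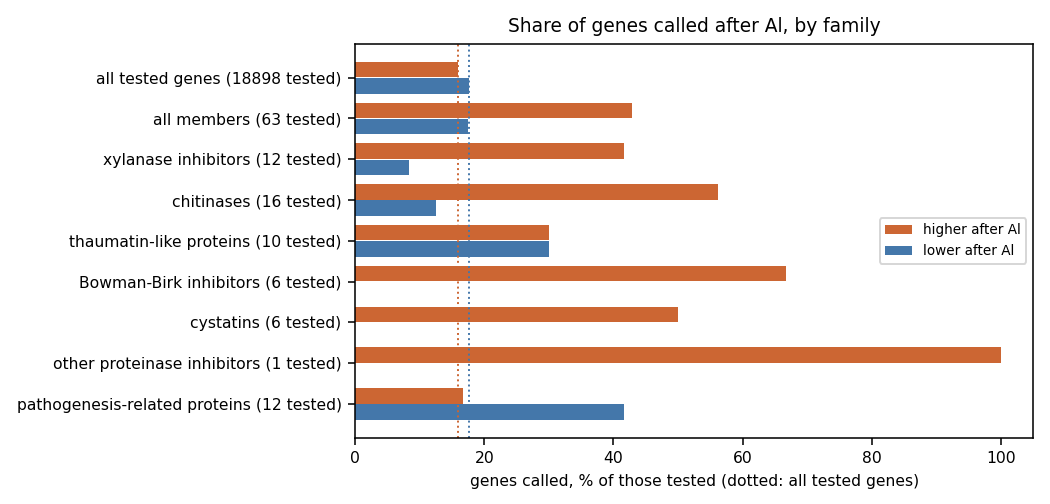
Share of the tested genes called higher (orange) or lower (blue) after Al, in percent of the tested genes of each family, with the shares of all 18898 tested genes as dotted lines. Chitinases, Bowman-Birk inhibitors and cystatins had more genes higher than lower, while genes named pathogenesis-related proteins had 5 lower and 2 higher of 12.

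Counts were also taken by family, to be read beside 15.9% higher and 17.6% lower among all tested genes. Of 16 tested chitinases 9 were higher and 2 lower, of 12 xylanase inhibitors 5 were higher and 1 lower, of 6 Bowman-Birk inhibitors 4 were higher, and of 6 cystatins 3 were higher. No tested Bowman-Birk inhibitor or cystatin was lower by limma, and at an unadjusted p under 0.05 the count of lower genes was also 0 in both families. Among all tested genes 17.6% and 23.4% were lower at these cuts, so 0 of 6 says little about a family. Among thaumatin-like proteins both directions occurred, with 3 of 10 higher and 3 lower. Of genes named pathogenesis-related proteins 5 of 12 were lower and 2 higher. Families follow the product names, so genes named PR-5 were counted here and not with the thaumatin-like proteins. Of these, 2 were tested, with 0 higher and 1 lower. Restricted to genes present on all 6 arrays, 6 of 13 chitinases were higher and 2 lower. There 3 of 8 xylanase inhibitors were higher and 1 lower, and 1 of 10 pathogenesis-related genes was higher and 5 lower. Of thaumatin-like proteins 2 of 7 were higher and 3 lower, while 4 of 5 Bowman-Birk inhibitors and 2 of 5 cystatins were higher. Among all genes present on all 6 arrays 15.7% were higher and 18.9% lower. The call of the lower xylanase inhibitor, LOC_Os01g71090, was lost without before-Al array 3 or after-Al array 2. Whether the families differ from each other was not tested.

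**Figure D2:**
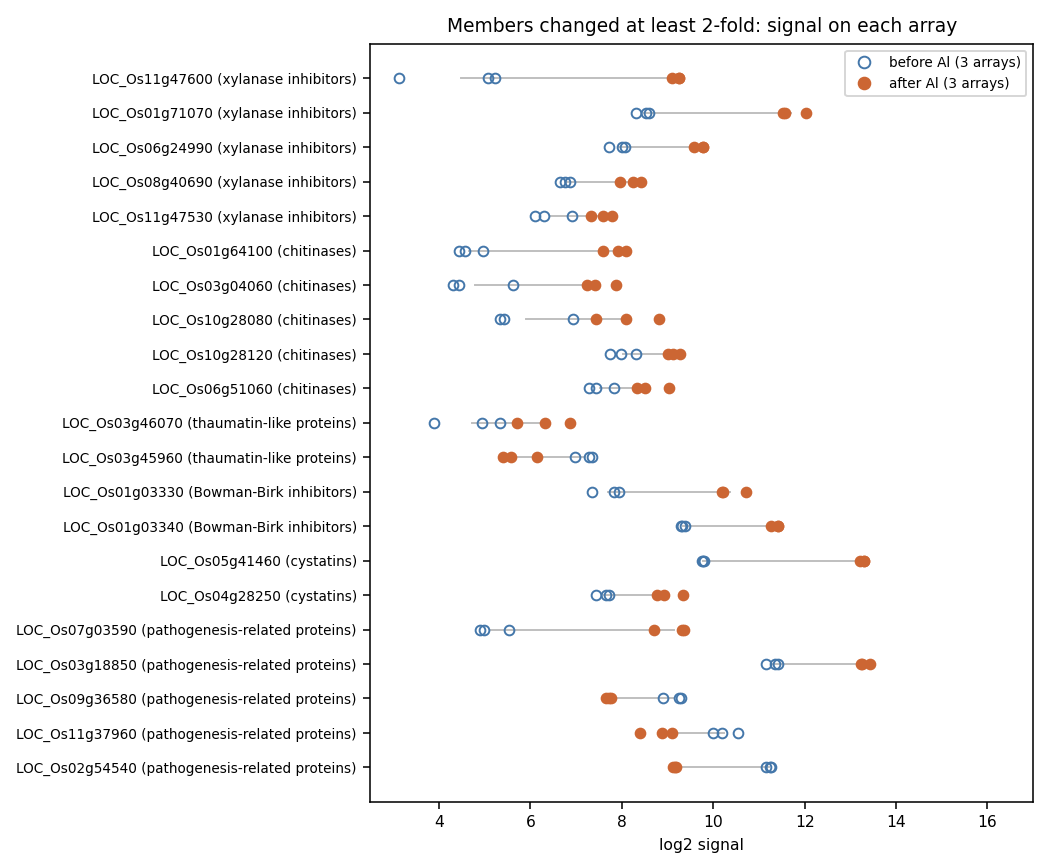
Log2 signal on each of the 6 arrays for the 21 genes called at least 2-fold higher or lower, with open blue circles for the 3 arrays before Al, filled orange circles for the 3 arrays after Al and a line between the group means. The orange and blue points are separate in every gene, 17 with orange to the right and 4 with orange to the left. Such separation held for every gene of the set that passed the test.

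The cystatins block papain-type cysteine proteases and held the riser with the lowest adjusted p among the 63 tested genes. LOC_Os05g41460, the gene of oryzacystatin-II (chromosome 5, 24197309 to 24198513 in the array annotation, as for all positions given, with no genome build stated), had log2 signals of 9.75, 9.80 and 9.77 before Al and 13.21, 13.29 and 13.31 after. The change of 3.50 ± 0.06 (SE, adjusted p = 8.07e-10) was 11.3-fold, many times the SD of 0.03 before and 0.05 after. Its probe set is marked as shared, so it may also read transcripts of similar sequence.

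LOC_Os04g28250, annotated as cysteine proteinase inhibitor B, read 7.73, 7.42 and 7.65 before Al and 8.78, 9.33 and 8.93 after. It was called present on 1 of 3 arrays before Al and all 3 after, and it changed by 1.41 ± 0.16 (adjusted p = 0.000116). The multicystatin gene LOC_Os05g33880, whose protein is annotated with repeated cystatin units, was present on all arrays and moved little, from 13.18, 13.14 and 13.24 to 13.37, 13.53 and 13.33. Its change of 0.22 ± 0.06 (adjusted p = 0.0208) lost the call when before-Al array 1, before-Al array 2 or after-Al array 2 was left out, with adjusted p of 0.0638, 0.0808 and 0.0687.

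The remaining cystatins did not pass. Oryzacystatin, LOC_Os01g58890, read 10.62 ± 0.04 (SD, n = 3) before Al and 10.72 ± 0.16 after, a difference of 0.10 ± 0.09 on a shared probe set. The rice cystatins that the annotation calls oryzacystatin and oryzacystatin-II thus had unlike values on these arrays, though the difference between the genes was not tested. LOC_Os03g31510 gave 0.26 ± 0.09 (adjusted p = 0.0515), with arrays before Al at 12.05, 11.83 and 12.09 and after Al at 12.28, 12.09 and 12.39. LOC_Os01g16430, a multidomain cystatin, gave 0.00 ± 0.11.

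The Bowman-Birk inhibitors, small cysteine-rich blockers of serine proteases, had a median change of 1.08 over 6 tested genes. LOC_Os01g03330 (chromosome 1, 1341394 to 1343032) rose from 7.82, 7.35 and 7.93 to 10.22, 10.18 and 10.71, a change of 2.67 ± 0.18 (adjusted p = 3.81e-06) or 6.36-fold. Its neighbour LOC_Os01g03340, the pinA gene (chromosome 1, 1344406 to 1345525), rose from 9.30, 9.37 and 9.32 to 11.26, 11.41 and 11.41, by 2.03 ± 0.07 (adjusted p = 6.63e-08) or 4.07-fold. Both are annotated as trypsin inhibitors of the bran type, and for each the lowest array after Al lay above the highest before Al by more than 1 log2 unit.

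The third gene measured in that neighbourhood, LOC_Os01g03390, had scattered arrays, 7.08, 5.31 and 6.75 before Al against 7.29, 7.29 and 8.66 after. Its difference of 1.37 ± 0.48 did not pass (adjusted p = 0.0598), although the groups did not overlap. Before-Al array 2 was the low one, and the probe set was called present on 2 of 3 arrays there.

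The wound-induced type inhibitor WIP1, LOC_Os01g04050, was present on all arrays, at 12.16, 12.10 and 12.09 before Al and 12.76, 12.77 and 12.76 after. The change was small and well above the array spread, 0.65 ± 0.05 (adjusted p = 7.72e-06). LOC_Os03g60840 rose from 9.16, 8.61 and 8.47 to 9.86, 9.36 and 9.40, by 0.80 ± 0.19 (adjusted p = 0.0106), with before-Al array 1 the closest to the arrays after Al. LOC_Os01g03680 gave 13.25 ± 0.01 (SD) and 13.31 ± 0.18, a difference of 0.06 ± 0.08 that did not pass.

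The gene outside these families with an inhibitor name was LOC_Os03g52390, of the type II proteinase inhibitor family, which in potato and tomato acts on serine proteases. Its arrays read 9.43, 9.13 and 9.28 before Al and 9.71, 9.88 and 9.90 after. The rise was 0.55 ± 0.10 (adjusted p = 0.00221).

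By their names, the xylanase inhibitors of this set fall into a pair of unrelated protein types. Those annotated as xylanase inhibitor protein 1 or 2 belong to the fold of class III chitinases, and several carry mRNA records that call them class III chitinase homologues. The annotation gave 18 of these 19 genes the function of hydrolysing O-glycosyl bonds and 7 of them chitinase activity. The other type, named TAXI or only xylanase inhibitor, resembles aspartic proteases, and 4 of its 7 genes carried the term for aspartic endopeptidases. Of the first type 8 genes were tested, with 4 higher and none lower, beside 15.9% and 17.6% of all tested genes. Among these risers LOC_Os11g47530 and LOC_Os11g47600 were present on no array before Al, so they entered the test through the arrays after Al. Of the second type 4 were tested, with 1 higher and 1 lower. At an unadjusted p under 0.05 the family as a whole had 6 of 12 genes higher and 1 lower, beside 19.8% and 23.4% of all tested genes.

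LOC_Os11g47600 (chromosome 11, 28200835 to 28202000), of the chitinase-like type, was among the genes not detected before Al. Before Al it was not called present on any array, at 5.07, 3.13 and 5.23, and after Al it was present on all 3, at 9.26, 9.26 and 9.09. Its own signals gave at least 26.5-fold (fitted change 4.73 ± 0.47, interval 3.68 to 5.77, adjusted p = 4.87e-05). Before-Al array 2 set part of that size: without it the fold was 16.6, and with signals below log2 5 set to 5 it was 17.2.

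LOC_Os11g47530, a neighbour of the same type, was also not called present before Al, at 6.10, 6.30 and 6.91, and read 7.33, 7.58 and 7.78 after. Its own signals gave at least 2.17-fold (fitted change 1.12 ± 0.23, interval 0.60 to 1.65, adjusted p = 0.00514). LOC_Os06g24990 rose from 8.06, 7.72 and 8.0 to 9.59, 9.78 and 9.78 on a shared probe set, by 1.79 ± 0.12 (adjusted p = 3.35e-06). LOC_Os08g40690, which an mRNA record names OsChib3H-d, rose from 6.64, 6.75 and 6.86 to 8.24, 7.95 and 8.41, by 1.45 ± 0.16 (adjusted p = 0.000104).

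All 4 of these risers had their lowest array after Al above their highest array before Al, as did every gene of the set called higher. LOC_Os05g15770 read 11.45 before and 11.31 after on a shared probe set and did not pass (-0.14 ± 0.16). LOC_Os06g25010, the neighbour of LOC_Os06g24990, was not tested: it read 4.93, 5.04 and 2.88 before Al, present on none, and 6.93, 7.49 and 7.11 after, present on 2 arrays. It was picked out after its values were seen.

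Among the TAXI type, neighbours on chromosome 1 moved in opposite directions. LOC_Os01g71070, annotated as TAXI-IV (41460348 to 41461832), rose from 8.53, 8.59 and 8.30 to 11.53, 11.58 and 12.03. The change was 3.23 ± 0.13 (adjusted p = 1.87e-07) or 9.41-fold, with SDs of 0.15 before and 0.27 after. LOC_Os01g71090 (41468851 to 41470301) fell from 7.66, 7.84 and 8.43 to 7.25, 6.72 and 7.41, a change of -0.85 ± 0.24 (adjusted p = 0.0231).

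The fall of LOC_Os01g71090 rested on its outer arrays. Without before-Al array 3 the adjusted p was 0.0851, and without after-Al array 2 it was 0.0790. Between these genes in locus order, LOC_Os01g71080 gave -0.13 ± 0.17, and LOC_Os01g71060 on the other side gave -0.02 ± 0.09, so neither passed the test.

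Chitinases had 9 of 16 tested genes higher, 5 of them at least 2-fold, with a median change of 0.59. Of all tested genes 15.9% were higher and 5.04% rose at least 2-fold. Among the 5, LOC_Os01g64100, LOC_Os03g04060 and LOC_Os10g28080 were present on 0 or 1 arrays before Al and passed the presence filter only with the arrays after Al. LOC_Os01g64100, annotated as an acidic endochitinase (chromosome 1, 37562629 to 37564055), was not called present before Al, at 4.95, 4.57 and 4.43, and was present on all arrays after, at 8.08, 7.58 and 7.92. Its own signals gave at least 9.27-fold (fitted change 3.21 ± 0.24, interval 2.68 to 3.74, adjusted p = 6.88e-06), and with signals below log2 5 set to 5 the change of LOC_Os01g64100 was 2.86. LOC_Os03g04060, a basic endochitinase recorded as clone MIRCH38, went from 5.61, 4.45 and 4.30 to 7.42, 7.24 and 7.87, by 2.72 ± 0.36 (adjusted p = 0.000303). Before Al LOC_Os03g04060 was called present on 1 array. In both genes all arrays after Al lay above all arrays before, as in every gene of the set called higher.

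A group of 3 chitinase genes on chromosome 10, from 14229563 to 14274259, was higher throughout. LOC_Os10g28080 rose from 5.42, 6.94 and 5.34 to 7.44, 8.81 and 8.08, by 2.21 ± 0.45 (adjusted p = 0.00442), with before-Al array 2 and after-Al array 2 the highest of their groups and 1 of 3 arrays present before Al. LOC_Os10g28120 rose from 7.75, 8.31 and 7.99 to 9.13, 9.0 and 9.26, by 1.12 ± 0.15 (adjusted p = 0.000356). The class III chitinase RCB4, LOC_Os10g28050, was present on all arrays and rose from 12.03, 11.72 and 11.94 to 12.46, 12.57 and 12.64, by 0.66 ± 0.08 (adjusted p = 0.000256). In each of the 3 the groups were separate, as in every gene of the set that passed.

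LOC_Os06g51060, a basic endochitinase on chromosome 6, rose from 7.28, 7.44 and 7.82 to 8.50, 8.32 and 9.03, by 1.10 ± 0.20 (adjusted p = 0.00257). The other 3 risers changed by less than 2-fold, from 0.54 to 0.96. The smallest of these, LOC_Os01g18400 at 0.54 ± 0.17 (adjusted p = 0.0352), is named after its values were seen because its call was lost when any array but after-Al array 1 was left out, with adjusted p from 0.0604 to 0.126.

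The 2 chitinases that fell did so by less than 2-fold. LOC_Os05g04690, a basic endochitinase, read 10.24, 9.87 and 9.74 before Al and 9.28, 9.38 and 9.52 after, a change of -0.56 ± 0.13 (adjusted p = 0.00871). LOC_Os11g27400, annotated as a chitinase-3-like protein, read 9.09, 9.12 and 8.99 and then 8.48, 8.67 and 8.72, a change of -0.44 ± 0.10 (adjusted p = 0.00907). LOC_Os09g32080, an endochitinase, read 13.51 ± 0.07 (SD) and 13.68 ± 0.15, and its difference of 0.18 ± 0.07 did not pass (adjusted p = 0.110).

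**Figure D3:**
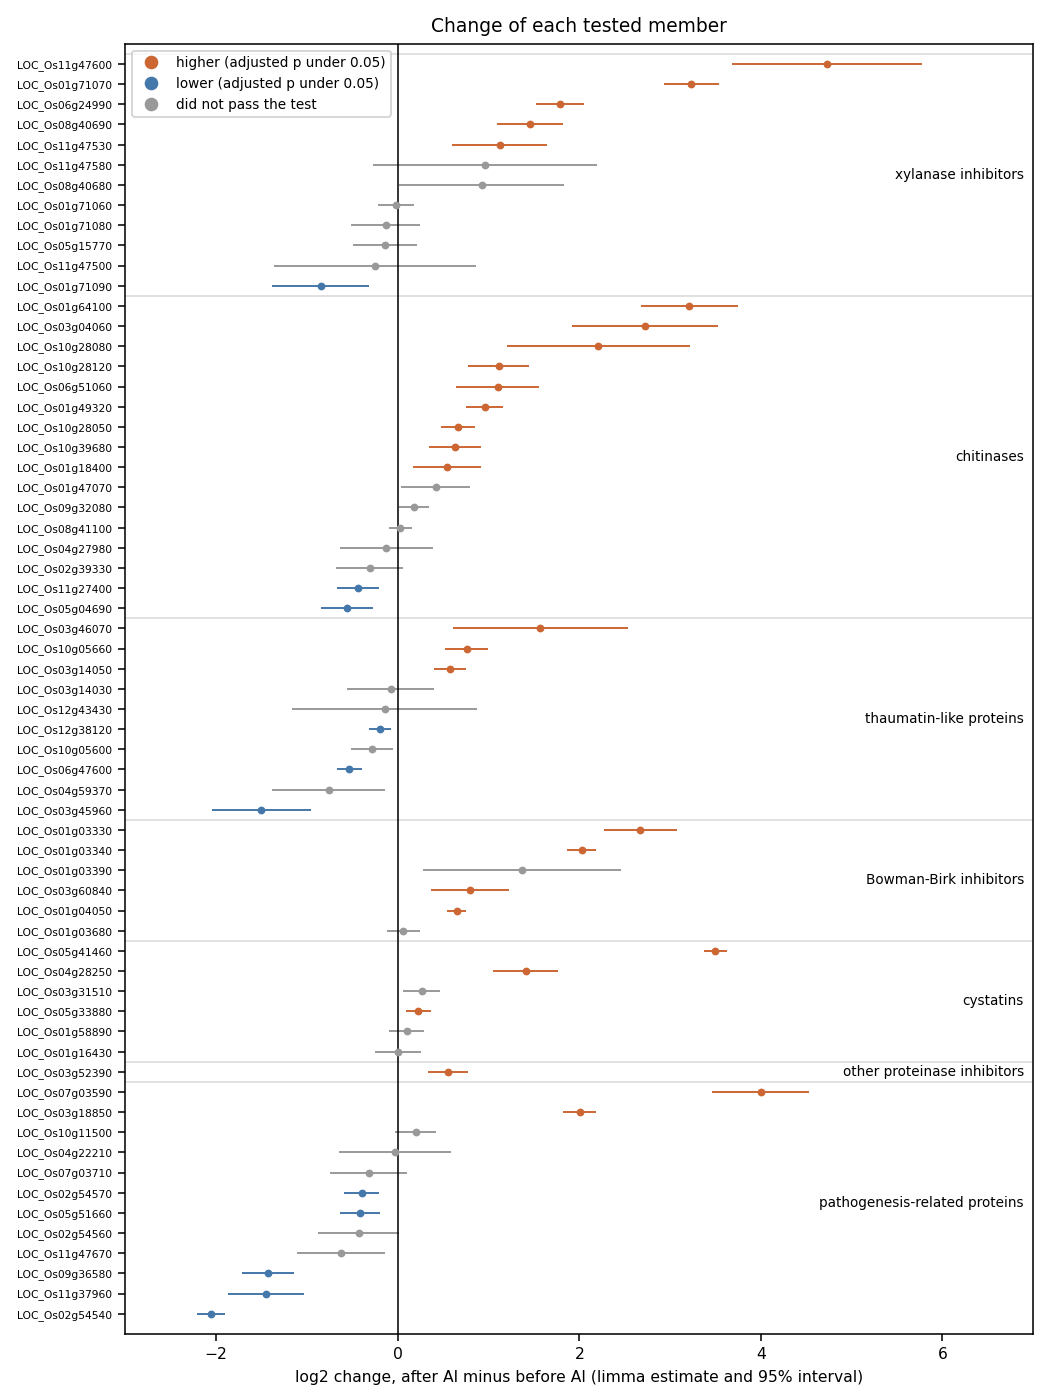
Change of each of the 63 tested genes on the log2 scale, after minus before Al, as the limma estimate with its 95% interval, grouped by family. Points are orange where the gene was called higher, blue where lower and grey where it did not pass. The interval of LOC_Os11g47600 runs from 3.68 to 5.77 and that of LOC_Os02g54540 lies around -2.06.

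Thaumatin-like proteins, relatives of the PR-5 class, moved both ways. The annotation calls both LOC_Os03g45960 and LOC_Os03g46070 protein P21, and they lie near each other on chromosome 3. LOC_Os03g45960 (25926366 to 25927606) fell from 7.28, 7.36 and 6.98 to 5.39, 5.57 and 6.13, a change of -1.50 ± 0.24 (adjusted p = 0.00113). LOC_Os03g46070 (25988564 to 25989480) read 5.33, 4.94 and 3.90 before Al, present on 2 arrays, and 6.32, 5.71 and 6.86 after, a rise of 1.57 ± 0.43 (adjusted p = 0.0202).

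The rise of LOC_Os03g46070 was less firm than the fall of its namesake. It did not pass without before-Al array 3, after-Al array 1 or after-Al array 3, with adjusted p of 0.0542, 0.0558 and 0.0752. Neither gene changed its direction in those fits.

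LOC_Os10g05660 rose from 8.98, 8.93 and 9.02 to 9.85, 9.52 and 9.83, by 0.76 ± 0.11 (adjusted p = 0.000443). LOC_Os03g14050 rose from 11.36, 11.07 and 11.18 to 11.76, 11.75 and 11.84, by 0.58 ± 0.08 (adjusted p = 0.000379). For the latter a second probe set gave 0.34 ± 0.25 and did not pass.

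LOC_Os06g47600 fell from 11.83, 11.90 and 11.91 to 11.40, 11.38 and 11.25, a change of -0.54 ± 0.06 (adjusted p = 0.000141), and its second probe set gave -0.56 ± 0.06. LOC_Os12g38120 read 12.22, 12.17 and 12.20 before and 11.98, 12.08 and 11.94 after. Its change of -0.20 ± 0.06 (adjusted p = 0.0244) was near the threshold: leaving out any array but after-Al array 2 ended the call, with adjusted p from 0.0547 to 0.0808. The 4 thaumatin-like genes that did not pass had estimates from -0.76 to -0.08.

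Genes named pathogenesis-related proteins were mostly of the PR-1 type, secreted proteins that in many plants mark a defence response, and only 8 of the 21 of that type were tested. LOC_Os07g03590, annotated as PRB1-3 (chromosome 7, 1435590 to 1436446), read 4.99, 4.89 and 5.53 before Al and 9.32, 9.37 and 8.71 after, a rise of 4.0 ± 0.24 (adjusted p = 1.71e-06) or 16.0-fold. Its probe set is marked as shared and the annotation notes that it may cross-hybridise to 3 other loci. A second probe set of the gene, not marked as shared, was called present on no array before Al, at 0.00, 0.00 and 1.72, and on all 3 after, at 6.5, 6.74 and 6.57.

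Its neighbour in locus order, LOC_Os07g03580, was called present on no array and was not tested, while its signals were 2.30, 0.41 and 1.43 before Al and 6.96, 7.41 and 6.70 after. It was picked out after its values were seen. In the same neighbourhood PR-1a, LOC_Os07g03710, gave -0.32 ± 0.19 and did not pass (adjusted p = 0.240).

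The other PR-1 genes that passed were lower. LOC_Os02g54540 (chromosome 2, 33402148 to 33403070) read 11.15, 11.26 and 11.24 before Al and 9.19, 9.12 and 9.16 after. This change of -2.06 ± 0.07 (adjusted p = 4.98e-08), 4.17-fold, was the largest fall among the 63 tested genes, with SDs of 0.06 and 0.03. LOC_Os02g54570, in the same group of neighbours, fell from 11.53, 11.57 and 11.41 to 11.28, 10.99 and 11.04, a change of -0.40 ± 0.09 (adjusted p = 0.00571). The gene between them, LOC_Os02g54560, gave -0.43 ± 0.20 and did not pass.

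LOC_Os05g51660, annotated as PR-1A1, fell from 9.33, 9.27 and 9.35 to 8.93, 9.04 and 8.75, a change of -0.41 ± 0.10 (adjusted p = 0.0107). LOC_Os10g11500 read 12.47 before and 12.66 after and did not pass (0.20 ± 0.10).

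Outside the PR-1 type, the gene JIOsPR10, LOC_Os03g18850, rose. PR-10 proteins stay inside the cell and resemble ribonucleases. Its arrays read 11.34, 11.15 and 11.42 before Al and 13.24, 13.26 and 13.43 after, a rise of 2.00 ± 0.08 (adjusted p = 1.57e-07) or 4.01-fold.

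A PR-4 and a PR-5 gene fell. The PR-4b gene LOC_Os11g37960, annotated as win2 after a wound-induced gene of potato, fell from 10.55, 9.98 and 10.19 to 8.40, 8.88 and 9.09, a change of -1.45 ± 0.18 (adjusted p = 0.000254). The PR-5 gene LOC_Os09g36580 fell from 9.24, 8.89 and 9.29 to 7.73, 7.65 and 7.76, a change of -1.43 ± 0.13 (adjusted p = 2.67e-05). The other PR-5 gene measured, LOC_Os11g47670, gave -0.63 ± 0.22 and narrowly missed the threshold (adjusted p = 0.0536). Each of these 3 had a lower mean after Al. In none of the 3 did the groups overlap, which also held for every gene of the set that passed.

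Position was not used to choose the genes, except that 5 genes were left out by locus. Linking genes whose locus numbers differ by at most 100, 19 groups of neighbours held 71 of the 113 genes, and 42 genes stood alone. Of the 34 tested genes in groups 14 were higher and 6 lower, and of the 29 tested genes that stood alone 13 were higher and 5 lower. Among all tested genes 15.9% were higher and 17.6% lower. Some of these risers passed the presence filter only with the arrays after Al, such as LOC_Os11g47600 in a group and LOC_Os01g64100 alone. In 9 groups at least 2 genes were tested, and 1 group, the TAXI genes of chromosome 1 from 41460348 to 41504544, held a riser and a faller. Neighbours of like sequence can share signal on a probe set, so likeness among them was not tested.

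The group with the most genes lay on chromosome 11, from 28165012 to 28225949, with 13 genes, 5 of them tested. Both risers there, LOC_Os11g47530 and LOC_Os11g47600, were not called present before Al. LOC_Os11g47580 gave 0.96 ± 0.55 and LOC_Os11g47500 gave -0.25 ± 0.49, neither passing. The other 8 genes of the group were not tested. The bran type Bowman-Birk group, from 1335040 to 1363243 on chromosome 1, had 6 genes, of which the 3 tested all had higher means after Al and 2 passed.

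**Figure D4:**
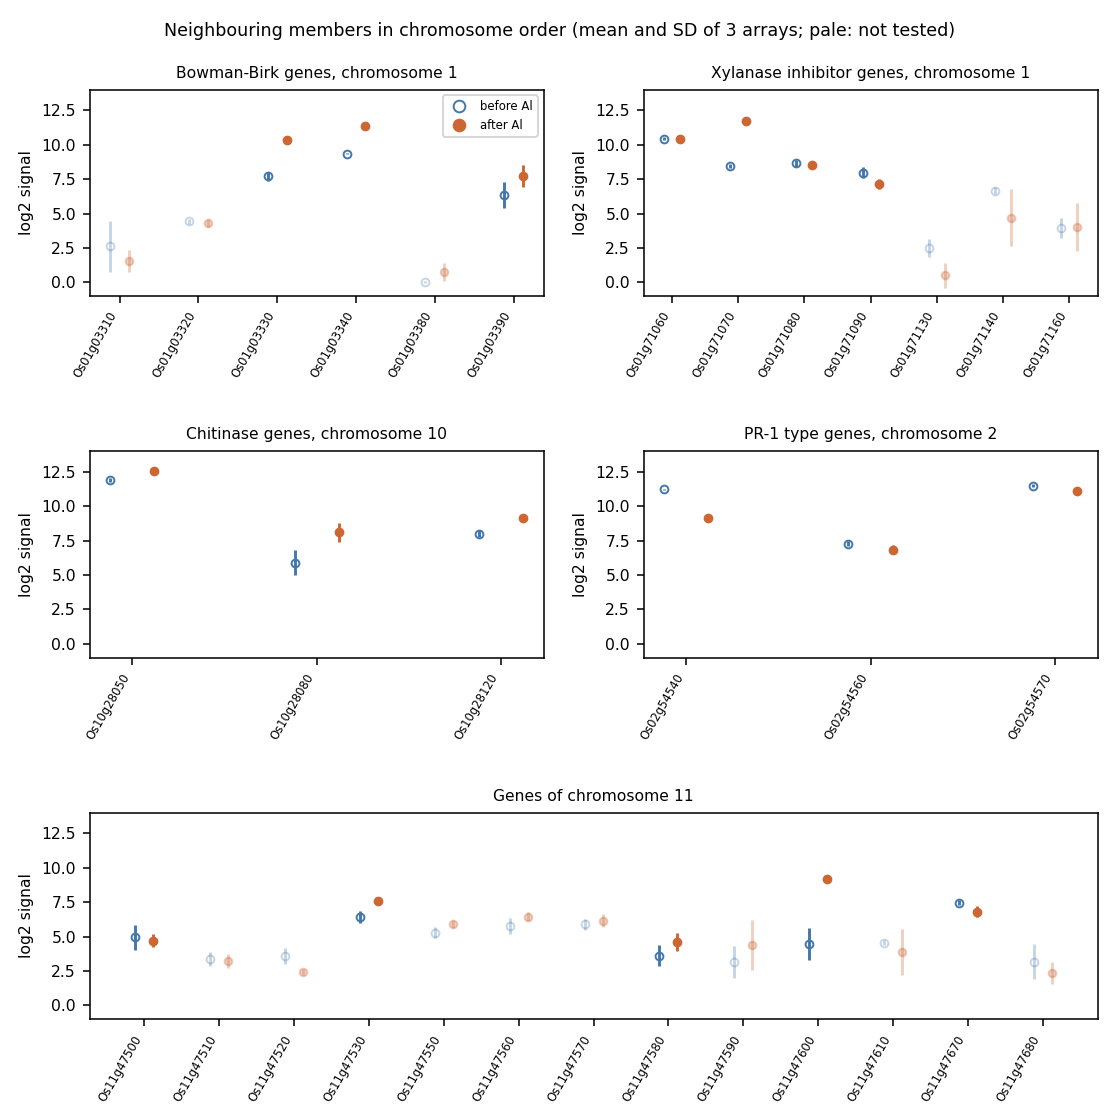
Log2 signal (mean and SD of 3 arrays) of neighbouring genes in chromosome order, before (open blue) and after Al (filled orange), with pale symbols for genes that were not tested. In the Bowman-Birk panel LOC_Os01g03330 and LOC_Os01g03340 have orange points well above their blue ones, in the xylanase inhibitor panel LOC_Os01g71070 is up while LOC_Os01g71090 is down, and in the chitinase panel all 3 genes are up.

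The annotation also held features that the names did not use. A predicted membrane span that starts within the first 20 residues, as a secretion signal can give, was listed for 57 of the 113 genes (50.4%) and for 3884 of all 37390 genes (10.4%). The function terms followed the names. Of 21 chitinases 14 carried chitinase activity, of 9 Bowman-Birk inhibitors 8 carried inhibition of serine endopeptidases, and of 9 cystatins 8 carried inhibition of cysteine endopeptidases.

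Related gene lists, taken by product text, give the company these genes keep. The cysteine protease list held OTU-like, ATG4 and vacuolar processing enzymes beside the papain type that cystatins block, so it is wider than their targets. Among its 15 tested genes 6 were higher and none lower, beside 15.9% and 17.6% of all tested genes. At an unadjusted p under 0.05 these counts were 7 and 0, beside 19.8% higher and 23.4% lower among all tested genes. All 6 rises were under 2-fold. The vacuolar processing enzyme LOC_Os02g43010 gave 0.80 ± 0.15 and the RD21a-like protease LOC_Os05g43230 gave 0.35 ± 0.07. The largest rises among the 6 tested cystatins were 3.50 and 1.41, and the latter gene, LOC_Os04g28250, was present on 1 array before Al. The medians were close, 0.24 for the cystatins and 0.18 for the cysteine proteases. No test of the difference between the lists was made.

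Subtilisin-type proteases, a family of serine proteases, had 3 of 18 tested genes higher (16.7%) and 8 lower (44.4%), with a median of -0.40. LOC_Os05g36010 changed by -1.51 ± 0.09 and LOC_Os03g40830 by -1.16 ± 0.12. Among the 3 higher, LOC_Os02g17000 was present on no array before Al and on all 3 after, so it entered the test through the arrays after Al. Its own signals gave at least 4.455-fold (fitted change 2.16 ± 0.32, interval 1.44 to 2.87). Glucan endo-1,3-beta-glucosidases, which cut another wall polymer of fungi and plants, had 9 of 42 tested genes higher (21.4%) and 13 lower (31.0%), with a median of 0.01. With any 1 array left out, 6 to 8 of these glucosidases were higher and 10 to 13 lower. The form GII, LOC_Os01g51570, rose by 1.16 ± 0.12, while LOC_Os07g35480 changed by -1.62 ± 0.05.

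Proteins with LysM domains, the domain by which plants bind chitin fragments, had no call in 8 tested genes by limma. At an unadjusted p under 0.05, 2 of them were higher and none lower, beside 19.8% and 23.4% of all tested genes. The changes of the 8 ran from -0.26 to 0.32. The list of Kunitz and alpha-amylase inhibitors also took in subtilisin-chymotrypsin inhibitors by their name, and 2 of its 6 genes were tested with no call by limma. At an unadjusted p under 0.05 the subtilisin-chymotrypsin inhibitor LOC_Os01g42860 was higher (0.43 ± 0.17). The alpha-amylase/trypsin inhibitor LOC_Os07g11650 gave -0.04 ± 0.19.

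**Figure D5:**
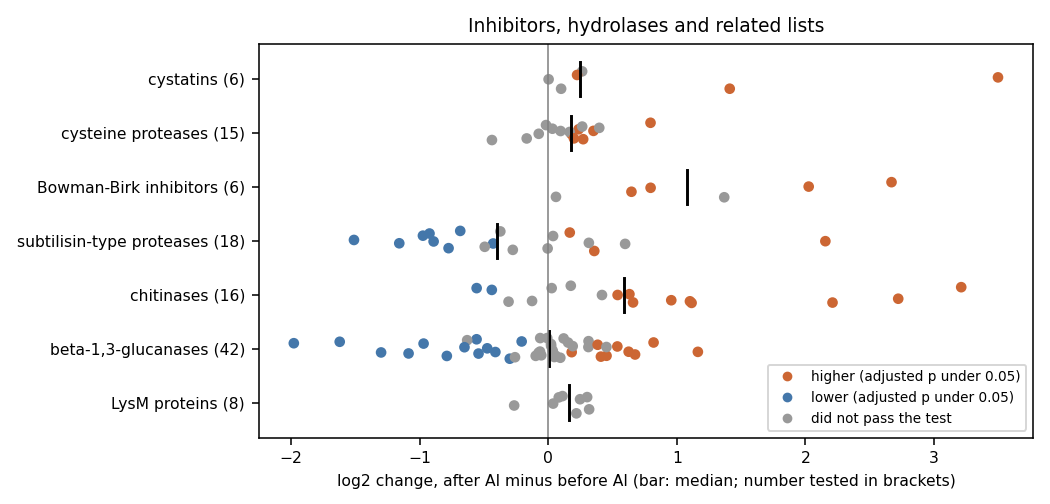
Change of each tested gene on the log2 scale, after minus before Al, in 3 families of the set and in 4 related lists, with a bar at the median and the number tested in brackets. Bowman-Birk inhibitors and chitinases lie mostly to the right of 0, subtilisin-type proteases mostly to the left with a median of -0.40, and LysM proteins within -0.26 to 0.32.

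The arrays were alike in depth of detection, with 24836 to 25492 of 57258 probe sets called present. STAR1 (LOC_Os06g48060), part of a transporter that rice needs for Al tolerance and is known to induce under Al, rose from 11.27 ± 0.06 (SD) to 13.13 ± 0.06 between the arrays labelled before and after Al. Root markers were measured beside the set. OsPIN2, an auxin carrier of root tips, changed by -0.35 ± 0.08 (adjusted p = 0.00816) and OsSCR1, a regulator of the root ground tissue whose probe set may also read LOC_Os12g02870, by -0.93 ± 0.20 (adjusted p = 0.00603), while OsSHR1 (-0.08 ± 0.10), QHB (0.21 ± 0.17) and Lsi1 (-0.31 ± 0.10) did not pass.

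Of 18 genes that mark green tissue 8 were present on at least 3 arrays and 6 on none, and their summed linear signal was 1966.7 to 2033.3 before Al and 1597.1 to 1827.5 after. Of 19 seed storage genes 4 were present on at least 3 arrays and 11 on none, with summed signals of 3277.4 to 3481.5 before and 2668.6 to 2824.2 after. Both sums were lower after Al, and the part of such tissue in the falls described here was not tested.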

How the data were processed

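Per the file headers, the deposited tables hold log2 signals of 57258 probe sets on 6 arrays, detection calls, and a p-value and fold change per probe set that were not used for calls. MAS5 is named in the submitters' processing notes. The sources used here give neither its settings nor the genome build of the printed coordinates. The log2 signals were used as deposited by the authors.

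Probe sets present on at least 3 arrays (25283) were fitted with limma 3.58.1 in R 4.3.3 (lmFit, eBayes with an intensity trend), after tests on simulated data. P-values were two-sided and adjusted by Benjamini-Hochberg over all of them (threshold 0.05), with 4 residual degrees of freedom per probe set. The probe set with the highest mean stood for a gene. A bound ("at least N-fold") takes the mean of the group with presence calls over that of the group without, where each undetected array counts at its own signal or at the lowest signal called present on it, whichever is higher. The number of arrays limits the precision.

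The genes and lists were chosen with earlier results of these data known. Genes named are, per family, up to 5 called risers and fallers by size, the highest signal before Al, every gene present on all 3 arrays of 1 group and none of the other, all tested genes of families with 6 or fewer tested genes, and all tested genes of neighbour groups with at least 2 calls. Other genes named were chosen after their values were seen. Same-numbered arrays deviated together weakly for numbers 1 and 3 and hardly for 2 (correlations 0.0696, 0.0865 and 0.00114). Other pairs ran from -0.092 to 0.0212. The design text names no batch, and the fit has no replicate block. Alternatives changed the normalization, filter, floor, trend, block and probe sets, or left out 1 array. Sequences were not used here.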

Additional observations from a re-analysis of the deposited data

How the results depend on the processing

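Of the 38 calls in the set, 32 held in all 14 alternatives in which they were tested. Values beyond those in the report that moved were as follows. Without a presence filter the median change was 0.027, since undetected genes entered, and no xylanase inhibitor was lower (0); the count was also 0 with signals floored at log2 5 and with no intensity trend. With no trend 3 cysteine proteases were higher. With only genes present on all 6 arrays, which leaves fewer genes, 9 genes rose at least 2-fold, 3 xylanase inhibitors were higher and 1 pathogenesis-related gene was higher. With only probe sets not marked as shared, 5 beta-1,3-glucanases were higher and 1 LysM protein was lower. The cause of the other moves was not tested.

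Leaving out 1 array at a time gave 25 to 28 genes higher and 9 to 13 lower, with a median of 0.16 to 0.26. At least 2-fold, 15 to 18 were higher and 4 to 5 lower. Lower xylanase inhibitors numbered 0 to 1 (0 without before-Al array 3 or after-Al array 2). Higher genes in the list of Kunitz and alpha-amylase inhibitors numbered 0 to 1 (1 without after-Al array 1). Genes that had not passed and crossed 0 when 1 array was left out were LOC_Os01g16430 (from -0.0781 to 0.1177), LOC_Os01g71060 (-0.0839 to 0.0443), LOC_Os11g47500 (-0.7662 to 0.0759), LOC_Os01g71080 (-0.2825 to 0.0171), LOC_Os05g15770 (-0.2569 to 0.0819) and LOC_Os01g03680 (-0.0423 to 0.129). LOC_Os03g60840 did not pass when floored or without a trend (adjusted p 0.0506 and 0.0505). The other 5 genes whose calls were lost, LOC_Os01g18400, LOC_Os01g71090, LOC_Os03g46070, LOC_Os05g33880 and LOC_Os12g38120, also missed the threshold with no filter and with no trend (adjusted p 0.0515 to 0.0980).

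With the replicate number as a block, 7844 probe sets were called against 7639, and 31 genes of the set were higher and 12 lower, with LOC_Os01g03390, LOC_Os01g47070, LOC_Os03g31510 and LOC_Os08g40680 among the higher and LOC_Os11g47670 among the lower. The block uses the title numbers. The value columns number the arrays after Al 2 to 4, which would pair before-Al arrays 2 and 3 with after-Al arrays 1 and 2 (correlations 0.0212 and 0.00695). Numbers alone tie the arrays, and the correlation was not the best with the own number for every array.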
